A study of Mus musculus with 34 samples.

Results

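The genes described here are 10 neuropeptide precursor genes of the mouse hippocampus, *Sst*, *Npy*, *Vip*, *Cck*, *Penk*, *Pdyn*, *Tac1*, *Tac2*, *Crh* and *Cort*. They were chosen by gene symbol, by a rule that uses no measured value, from the 54532 genes of a bulk RNA-seq count table, and all 10 were among the 22018 genes with enough counts to be tested. The table holds the dorsal hippocampus of 8 adult male C57BL/6J mice, which were housed singly and handled and which carried no engineered allele. In the SOR group, 4 mice were trained in spatial object recognition, a task in which a mouse learns where objects stand in an arena, and tissue was taken 1 h after training. The homecage group held 4 mice that were not trained, and the mice of both groups were 2 to 3 months old.

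Neuropeptides are made as long precursor proteins that prohormone convertases cut into short peptides, which are stored in dense-core vesicles and act on G protein-coupled receptors. In the hippocampus most of these genes mark classes of GABAergic interneurons. Somatostatin and neuropeptide Y are typical of dendrite-targeting cells, vasoactive intestinal peptide of cells that inhibit other interneurons, and cholecystokinin of a class of basket cells, although *Cck* is also transcribed in pyramidal cells. The opioid precursor gene *Pdyn* is known for its expression in dentate granule cells, and *Penk* is found in granule cells and in some interneurons. The comparison asked whether the mRNA level of any of these genes had moved by 1 h after learning.

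No neuropeptide gene differed between the groups past the test (edgeR quasi-likelihood F test, Benjamini-Hochberg adjusted p under 0.05). The count was 0 of 10, against 0.309% of all genes tested, and it was also 0 of 10 with DESeq2 (1.98% of all genes) and with limma-voom (0.286%). At an unadjusted p under 0.05 the count was 0 of 10, against 10.1% of all genes, and in none of the 10 did the 4 SOR values lie beyond all 4 homecage values, against 6.95% of all genes. The mean was higher in SOR for 5 genes and lower for 5, the median log2 fold change was -0.01 against -0.02 over all genes tested, and the 10 values ran from -0.11 for *Cort* to 0.28 for *Tac2*. A sum of mRNA over the tissue cannot tell fewer cells of a type from less RNA per cell.

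The libraries were deep and similar in size, with 54934184 to 81525977 counts in homecage and 51406011 to 72070472 in SOR. A list of 21 activity-regulated genes, those that neurons transcribe rapidly after firing, was chosen with earlier results of these data known. Of these, 12 rose and 0 fell past the test, against 0.309% of all genes tested in either direction. The log2 fold changes of the 12 ran from 0.37 for *Nr4a2* to 2.75 for *Egr2*. Without homecage replicate 2, 7 of them passed, and the other 5 had log2 fold changes from 0.43 for *Homer1* to 1.10 for *Nr4a1* with adjusted p from 0.0527 to 0.0931 (edgeR). Over the whole list the mean was higher in SOR for 19 genes and lower for 2. The lower ones were *Npas4*, at a log2 fold change of -0.495 (edgeR adjusted p = 0.503), and *Btg2*, at -0.06 (edgeR adjusted p = 0.890). *Arc*, which encodes a synaptic protein, rose from 91.9 ± 4.98 to 246 ± 21 CPM (SD, n = 4 each; edgeR adjusted p = 8.27e-06), where CPM is the usual library-scaled count unit, here after upper-quartile scaling. The libraries differed in markers of the choroid plexus, the epithelium that lines the ventricle beside the hippocampus. The summed level of 10 such genes ran from 28.8 to 1121 CPM in homecage and from 45.8 to 4070 CPM in SOR, with the top value in SOR replicate 1, and all 10 had the higher mean in SOR with 0 past the test. On average most of this sum was *Ttr*, at 460 ± 513 CPM in homecage and 1314 ± 1636 in SOR (SD, n = 4 each). The next highest, *Kl*, had means of 31.8 and 52.7 CPM. The part of choroid plexus cells in the neuropeptide values was not tested. The count of neuropeptide genes past the test was 0 both with all mice and without SOR replicate 1. That cannot decide the question, since other libraries also held high sums, such as 1121 CPM in homecage replicate 1 and 904 CPM in SOR replicate 2.

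**Figure D1:**
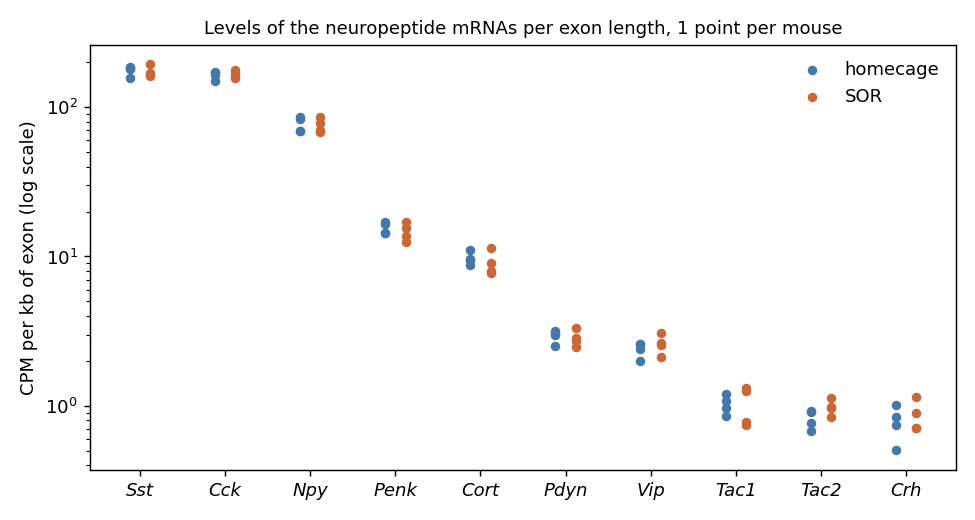
Level of each neuropeptide mRNA in CPM per kb of exon on a log scale, 1 point per mouse, homecage in blue and SOR in orange. The genes span from 174.9 CPM per kb for *Sst* to 0.822 for *Crh* on average, and the ranges of the groups overlap in each gene.

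The levels of the 10 mRNAs covered a wide range. They were compared per length, as CPM per kb of merged exon length, averaged over the 8 mice. The order depends on this length, which is the same divisor in every mouse. In CPM *Cck* was above *Sst*, at 214 against 126, and *Cort* at 6.34 was below *Pdyn* at 8.33 and *Vip* at 8.49. *Sst* had 174.9 ± 13.1 CPM per kb (SD, n = 8) and *Cck* 164 ± 9.01, and their ranges overlapped, although *Sst* was the higher of the pair in 8 of 8 mice. *Npy* followed at 76.3 ± 7.67, *Penk* at 15.1 ± 1.68 and *Cort* at 9.36 ± 1.30, each with a range that did not touch that of the gene before it. *Pdyn* at 2.89 ± 0.309 and *Vip* at 2.5 ± 0.328 overlapped. The lowest levels were those of *Tac1* at 1.02 ± 0.225, *Tac2* at 0.899 ± 0.138 and *Crh* at 0.822 ± 0.198 CPM per kb, and here the neighbours overlapped again, with *Tac1* above *Tac2* and *Tac2* above *Crh* in 6 of 8 mice each.

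For the 5 genes with the highest correlations between mice, described further on, of which no pair passed after adjustment, the proximal promoters are shown. The choice was made after the values were seen. Each sequence holds the 120 bases before the RefSeq transcription start and the 20 after it (RefSeq, GRCm38.p6), read 5′ to 3′ on the gene's own strand. Capitals mark the palindromic cAMP response element TGACGTCA in *Sst* and the related site TGCGTCA in *Cck* and *Cort*, which were searched on both strands and named from the letters alone. *Pdyn* has a second window in the RefSeq table, which is not shown.
Sst (chr16:23890825-23890964, minus strand): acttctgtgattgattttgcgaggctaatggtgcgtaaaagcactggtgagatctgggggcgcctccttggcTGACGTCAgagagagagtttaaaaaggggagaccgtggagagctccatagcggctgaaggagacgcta
Cck (chr9:121495675-121495814, minus strand): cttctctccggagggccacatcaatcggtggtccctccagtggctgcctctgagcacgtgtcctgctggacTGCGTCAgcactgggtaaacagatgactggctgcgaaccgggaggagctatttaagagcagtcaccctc
Cort (chr4:149126744-149126883, minus strand): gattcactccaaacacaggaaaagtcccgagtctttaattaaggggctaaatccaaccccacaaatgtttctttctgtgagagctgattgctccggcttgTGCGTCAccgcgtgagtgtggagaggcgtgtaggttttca
Pdyn (chr2:129699919-129700058, minus strand): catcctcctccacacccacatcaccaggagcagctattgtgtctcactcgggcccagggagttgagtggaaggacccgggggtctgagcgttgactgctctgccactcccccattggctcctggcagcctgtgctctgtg
Npy (chr6:49822590-49822729, plus strand): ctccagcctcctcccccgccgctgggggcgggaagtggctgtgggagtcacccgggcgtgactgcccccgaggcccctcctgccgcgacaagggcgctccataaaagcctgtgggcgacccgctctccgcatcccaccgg

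The cAMP response element TGACGTCA, a binding sequence of CREB, was found in 1.79% of all 32851 promoter windows of 300 bases in the RefSeq table, and among the neuropeptide genes in *Sst*, 48 bases before the start. The site TGCGTCA was found in 2.12% of windows and among these genes in *Cort*, *Cck* and *Tac1*, beginning 20, 49 and 199 bases before the start. The short core TGACG, which lies within both the full element and the reverse complement of TGCGTCA, was found in 20.8% of windows. It was present in *Sst*, *Cort*, *Cck* and *Tac1* and also in *Vip*, 79 bases before the start. The AP-1 site TGACTCA, found in 5.20% of windows, and the EGR sites GCGGGGGCG or GCGTGGGCG, found in 3.47%, occurred in none of the 9 windows of the 8 neuropeptide genes in the table, and the windows of *Npy*, *Pdyn* and *Tac2* held none of the sites searched. No window was read for *Penk* or *Crh*. These are matches of letters and not measured binding.

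**Figure D2:**
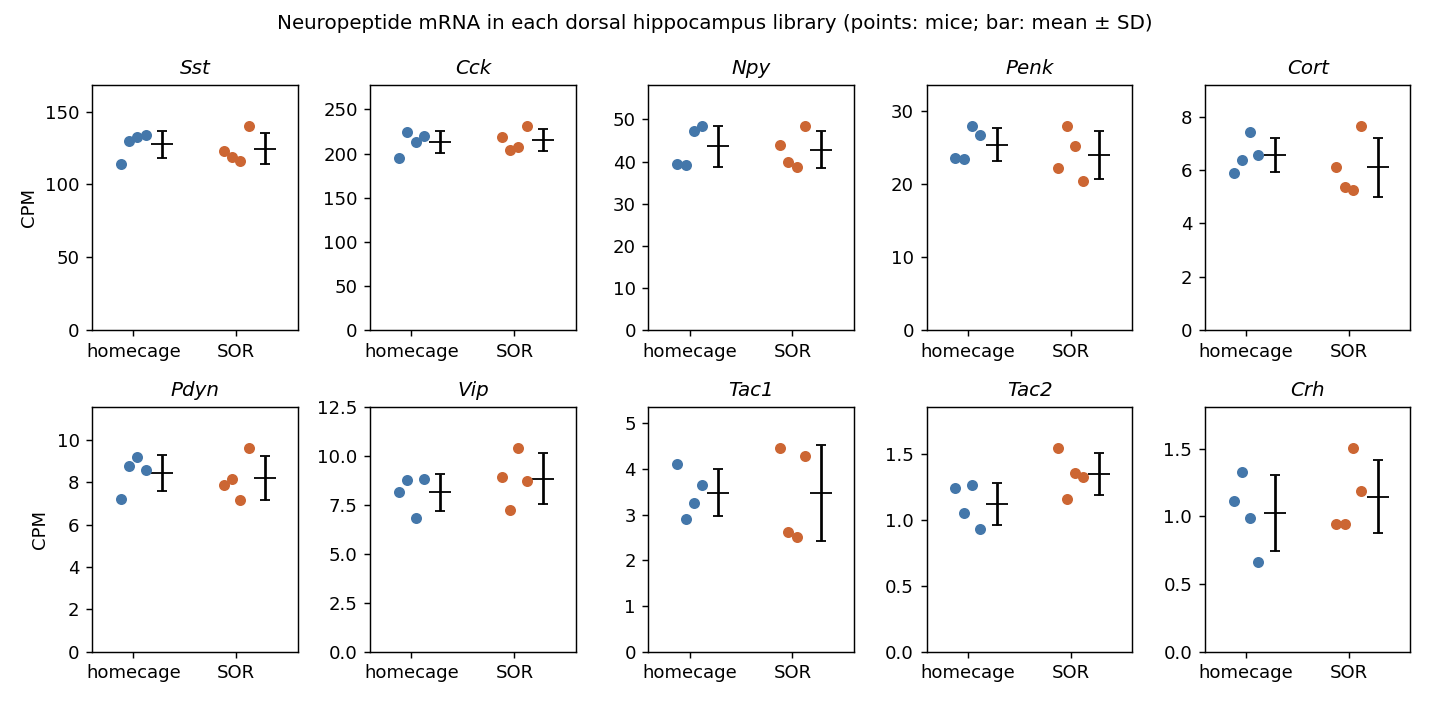
CPM of each neuropeptide gene in each mouse, homecage in blue and SOR in orange, with the group mean and SD beside the points (n = 4 each) and every axis starting at 0. The ranges of the groups overlap in all 10 panels, and *Tac1* has the SOR mice split above and below the homecage mice.

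Among the markers of dendrite-targeting interneurons, *Sst* (ENSMUSG00000004366, chr16:23889573-23890958 on the minus strand of GRCm38) encodes somatostatin, which inhibits through Gi-coupled receptors. Its 4 homecage libraries held 114, 129.7, 133 and 134 CPM and its 4 SOR libraries 123, 119, 116 and 140.3 CPM. The lowest value was a homecage mouse and the highest an SOR mouse, and 3 of the 4 SOR values fell inside the homecage range. The means were 128 ± 9.35 and 125 ± 10.8 CPM (SD, n = 4 each), a log2 fold change of -0.03 (SE 0.0686, 95% interval -0.19 to 0.12; edgeR adjusted p = 0.914). The interval corresponds to a fold between 0.880 and 1.09, among the narrowest of the 10 genes.

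*Cort* (ENSMUSG00000028971, chr4:149125034-149126763, minus strand) encodes cortistatin, a peptide related to somatostatin that binds the same receptors. Homecage values were 5.90, 6.39, 7.45 and 6.55 CPM, and SOR values were 6.12, 5.38, 5.24 and 7.67 CPM. A pair of SOR mice lay below every homecage mouse and 1 lay above them. With means of 6.57 ± 0.648 and 6.10 ± 1.11 CPM, the log2 fold change was -0.11 (SE 0.134, 95% interval -0.40 to 0.19; edgeR adjusted p = 0.844).

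*Npy* (ENSMUSG00000029819, chr6:49822710-49829507, plus strand) encodes neuropeptide Y, which dampens glutamate release in the hippocampus. Its level was 39.5, 39.3, 47.2 and 48.4 CPM in homecage and 44.0, 39.9, 38.8 and 48.5 CPM in SOR. Within each group the mice spread over nearly the same interval, and the group means were 43.6 ± 4.90 and 42.8 ± 4.42 CPM. The log2 fold change was -0.03 (SE 0.0906, 95% interval -0.23 to 0.17; edgeR adjusted p = 0.954).

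*Cck* (ENSMUSG00000032532, chr9:121489824-121495694, minus strand) encodes cholecystokinin and had the most counts of the 10 genes, at least 10719 in every library. Homecage mice held 195, 224, 214 and 219 CPM, and SOR mice held 218, 204, 208 and 232 CPM. One homecage mouse was lowest and 1 SOR mouse highest, and the other values interleaved. The means were 213 ± 13 and 215 ± 12.3 CPM with a log2 fold change of 0.02 (SE 0.0546, 95% interval -0.10 to 0.14; edgeR adjusted p = 0.955), so that the interval ended at folds of 0.930 and 1.10.

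*Vip* (ENSMUSG00000019772, chr10:5639218-5647617, plus strand) encodes vasoactive intestinal peptide, which acts through Gs-coupled receptors. The homecage libraries held 8.18, 8.77, 6.82 and 8.84 CPM and the SOR libraries 8.92, 7.24, 10.4 and 8.74 CPM. SOR replicate 3 was the highest and homecage replicate 3 the lowest, and the other 6 mice interleaved. The means of 8.15 ± 0.937 and 8.84 ± 1.31 CPM gave a log2 fold change of 0.12 (SE 0.125, 95% interval -0.16 to 0.39; edgeR adjusted p = 0.818).

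*Crh* (ENSMUSG00000049796, chr3:19693401-19695396, minus strand) encodes corticotropin-releasing hormone, the peptide that starts the pituitary stress response and that some hippocampal interneurons also make. It was the lowest gene of the set, with 52.5 to 98.3 counts per library, at 1.12, 1.33, 0.990 and 0.665 CPM in homecage and 0.941, 0.945, 1.51 and 1.19 CPM in SOR. The highest mouse had 2.27 times the level of the lowest, the widest such ratio of the 10 genes. The means were 1.02 ± 0.277 and 1.15 ± 0.268 CPM and the log2 fold change 0.17 (SE 0.241, 95% interval -0.37 to 0.70; edgeR adjusted p = 0.869). Folds from 0.776 to 1.62 lay within this interval, the widest of the 10 genes.

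The opioid precursors are *Penk*, which encodes proenkephalin, the source of the enkephalins, and *Pdyn*, which encodes prodynorphin, the source of the dynorphins that act at kappa receptors. *Penk* (ENSMUSG00000045573, chr4:4133531-4138819, minus strand) was at 23.6, 23.5, 27.9 and 26.8 CPM in homecage and 22.3, 28, 25.3 and 20.4 CPM in SOR. The SOR values bracketed the homecage values, with the lowest and the highest mouse both in SOR. Its means were 25.4 ± 2.25 and 24.0 ± 3.34 CPM, with a log2 fold change of -0.08 (SE 0.101, 95% interval -0.31 to 0.14; edgeR adjusted p = 0.837). The 5′ end of *Penk* overlaps an antisense gene, *A830012C17Rik*, at 0.149 ± 0.0870 CPM in homecage and 0.118 ± 0.0596 CPM in SOR, and whether the counting used strand is not stated.

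*Pdyn* (ENSMUSG00000027400, chr2:129686565-129699844, minus strand) was at 7.23, 8.79, 9.20 and 8.56 CPM in homecage and 7.89, 8.16, 7.16 and 9.65 CPM in SOR. Both the lowest and the highest value were SOR mice, by a small margin at the low end. The means were 8.45 ± 0.851 and 8.21 ± 1.05 CPM, a log2 fold change of -0.04 (SE 0.113, 95% interval -0.29 to 0.21; edgeR adjusted p = 0.938).

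The tachykinin precursors are *Tac1*, the source of substance P and neurokinin A, and *Tac2*, the source of neurokinin B. *Tac1* (ENSMUSG00000061762, chr6:7554879-7565834, plus strand) was at 4.11, 2.90, 3.27 and 3.64 CPM in homecage and at 4.47, 2.63, 2.51 and 4.29 CPM in SOR. No SOR mouse fell inside the homecage range, since a pair lay above it and a pair below it, and the SD was 0.515 CPM in homecage and 1.05 in SOR. The means were the same to the printed digits, 3.48 CPM in each group, and the log2 fold change was 0.00067 (SE 0.206, 95% interval -0.45 to 0.46). Its sign turned in several of the alternative fits, and the difference of the SDs was not tested.

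*Tac2* (ENSMUSG00000025400, chr10:127724478-127731768, plus strand) had the largest estimated difference of the 10 genes. Homecage mice held 1.24, 1.06, 1.27 and 0.934 CPM and SOR mice 1.55, 1.16, 1.36 and 1.33 CPM. Of the 4 SOR values, 3 lay above all homecage values and the other inside their range. The means were 1.13 ± 0.159 and 1.35 ± 0.161 CPM and the log2 fold change 0.28 (SE 0.162, 95% interval -0.08 to 0.63; edgeR adjusted p = 0.614). The exact two-sided permutation test over the 70 assignments of 4 against 4 gave p = 0.114, the lowest of the 10 genes, where the smallest p this design allows is 0.0286. With 64.5 to 115 counts per library, a fold between 0.945 and 1.55 was within the interval.

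**Figure D3:**
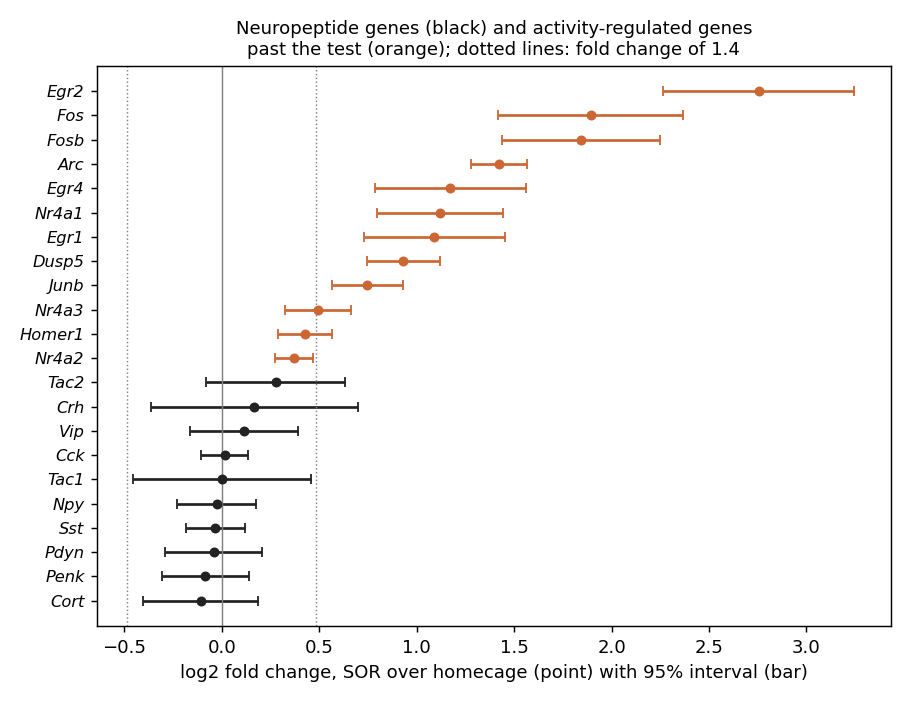
Log2 fold change of SOR over homecage for the 10 neuropeptide genes in black and for the 12 activity-regulated genes past the test in orange, with 95% intervals per gene and dotted lines at a fold of 1.4. The neuropeptide points lie from -0.11 to 0.28 and all their intervals include 0. The orange points lie from 0.37 to 2.75, but these genes are shown because they passed the test. Over all 21 activity-regulated genes tested the values ran from -0.495 for *Npas4* to 2.75 for *Egr2*.

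The precision differed between the genes. The 95% interval reached from 0.12 (*Cck*) to 0.53 (*Crh*) to either side of the estimate on the log2 scale, and 8 of the 10 intervals excluded a fold of 1.4 in both directions, with *Tac2* and *Crh* as the exceptions. For 4 genes, *Vip*, *Tac1*, *Tac2* and *Crh*, the interval reached 0.37, the smallest log2 fold change among the activity-regulated genes past the test. That value is the minimum over genes picked by passing in these same data, so it serves only as a mark of scale. Intervals are per gene and not adjusted for the number of genes. For the other 6 genes an increase of that size lay outside the interval, while a decrease of that size lay inside it for *Cort*.

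The genes around the neuropeptides were described with lists for the other steps of peptide signalling. Across 92 tested genes, each counted once, that encode other precursors, receptors, processing and vesicle proteins or mark interneurons, 0 passed the edgeR test (0.309% of all genes tested) and 7 had an unadjusted p under 0.05 (10.1% of all genes). DESeq2 passed 1 of the 92, against 1.98% of all genes, and the likelihood ratio test 1, against 0.972%.

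Of 47 other precursor genes, 21 could be tested, with a median log2 fold change of -0.07. The mean was higher in SOR for 8 of the 21 and lower for 13, against 56.2% lower among all genes tested. The 26 that could not be tested had at most 19.5 counts in any library, and 6 of them were at 0 in every library. They included the hypothalamic precursors *Hcrt*, *Avp* and *Oxt*, with at most 7.40 counts in any library. *Nts*, the precursor of neurotensin and also a marker of the subiculum, was at 7.62, 6.71, 6.72 and 6.69 CPM in homecage and at 5.73, 5.80, 5.48 and 5.79 CPM in SOR. All 4 SOR mice lay below all 4 homecage mice, with a log2 fold change of -0.28 (SE 0.0863; edgeR adjusted p = 0.288), which did not pass. *Adm*, the precursor of the vasodilator adrenomedullin, had a log2 fold change of 0.55 (edgeR adjusted p = 0.445) and *Edn1*, the endothelin 1 precursor, -0.45 (edgeR adjusted p = 0.506).

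Of the 24 receptor and binding protein genes, 19 could be tested, 10 with the higher mean in SOR and 9 with the lower, with a median log2 fold change of 0.02. The Y2 receptor gene *Npy2r*, whose product sits on axon terminals and responds to neuropeptide Y, had 44.8 ± 3.46 CPM in homecage and 39.8 ± 1.68 in SOR (log2 fold change -0.17, SE 0.0613; edgeR adjusted p = 0.375). The somatostatin receptor genes *Sstr3* and *Sstr4* had log2 fold changes of -0.18 and 0.13 (edgeR adjusted p = 0.496 and 0.552). The groups overlapped for all 3.

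All 21 processing and dense-core vesicle genes could be tested, and their median log2 fold change was -0.03. The mean was higher in SOR for 5 and lower for 16, against 56.2% lower among all genes tested. *Vgf*, which encodes a secreted precursor of dense-core vesicles, was at 23.7, 25.9, 25.3 and 24.6 CPM in homecage and at 27.2, 28.6, 33.4 and 32.8 CPM in SOR. Every SOR mouse was above every homecage mouse, with a log2 fold change of 0.29 (SE 0.0740; edgeR adjusted p = 0.179), which passed only in DESeq2 (adjusted p = 0.00606) and in the 3 fits with RUVs factors. *Pcsk1*, the prohormone convertase that makes the first cuts in many precursors, had 29.3 ± 3.16 and 34.5 ± 3.72 CPM (log2 fold change 0.24, SE 0.0918; edgeR adjusted p = 0.428), and its groups overlapped. *Baiap3*, which takes part in dense-core vesicle trafficking, was at 9.56, 2.93, 2.95 and 2.49 CPM in homecage and at 1.0, 1.27, 2.04 and 1.84 CPM in SOR. Homecage replicate 1 stood far above the other mice, and the log2 fold change of -1.54 (edgeR adjusted p = 0.242) was -0.86 without it. It passed with the likelihood ratio test (adjusted p = 0.0477) and with 3 RUVs factors.

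The list of 33 other interneuron genes included the GABA synthesis genes *Gad1* and *Gad2* and transcription factors of the medial ganglionic eminence. Of these 33, 0 passed, against 0.309% of all genes tested. An unadjusted edgeR p under 0.05 was reached by 0, against 10.1% of all genes. The mean was higher in SOR for 11 and lower for 22, against 56.2% lower among all genes tested, and the median log2 fold change was -0.03. Their summed level ran from 1440 to 1500 CPM in homecage and from 1340 to 1510 CPM in SOR. The 3 with the smallest p were *Maf* at 0.14, the calretinin gene *Calb2* at -0.54 and *Ndnf* at -0.20 on the log2 scale, with edgeR adjusted p between 0.531 and 0.559.

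Several neuropeptide genes are also strongly transcribed in regions next to the dorsal hippocampus, so markers of these regions were read in the same libraries. Of 9 medial habenula markers, where *Tac1* and *Tac2* are high, *Pou4f1* had at most 1.02 counts in any library, *Irx2* 2.05, *Chrnb4* 15.7 and *Chrnb3* 20.8. The other 5 could be tested and 0 passed. Their homecage means were 46.7 CPM for *Nwd2*, 8.43 for *Lrrc55*, 1.47 for *Chrna3*, 1.18 for *Gpr151* and 0.669 for *Gng8*. All 5 had the lower mean in SOR (median log2 fold change -0.145), against 56.2% of all genes tested. The summed level of the list was 53.6 to 62.1 CPM in homecage and 52.2 to 59.7 CPM in SOR. Of 8 striatal markers, where *Penk*, *Pdyn* and *Tac1* are high, 7 could be tested and 0 passed, with summed levels of 41.5 to 55.9 CPM in homecage and 43.3 to 62.0 CPM in SOR. The dopamine receptor gene *Drd1* had 5.83 ± 0.500 CPM in homecage and 4.30 ± 0.609 in SOR, without overlap (log2 fold change -0.44; edgeR adjusted p = 0.233). The part of these regions in the neuropeptide levels was not tested.

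The highest and lowest mice were often the same for several neuropeptide genes. *Sst*, *Npy*, *Cck*, *Pdyn* and *Cort* all had their highest value in SOR replicate 4, the library with the fewest counts. *Sst* and *Cck* were lowest in homecage replicate 1, and *Npy*, *Pdyn* and *Cort* in SOR replicate 3. *Penk* had its lowest value in SOR replicate 4, and *Vip* and *Crh* had their highest in SOR replicate 3.

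**Figure D4:**
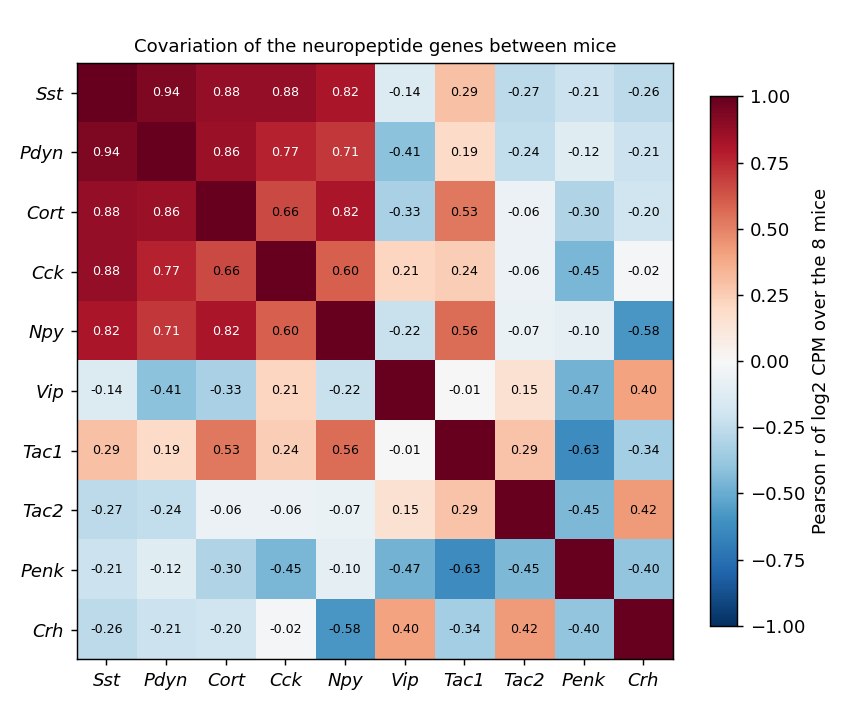
Pearson correlation of log2 CPM between the neuropeptide genes over the 8 mice, red for positive and blue for negative. *Sst*, *Pdyn*, *Cort*, *Cck* and *Npy* form a block of positive values from 0.598 to 0.937, *Vip*, *Tac1*, *Tac2* and *Crh* have values of both signs, and all 9 values of *Penk* are negative.

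Of the 45 pairs of genes, 20 had a positive Pearson correlation of log2 CPM over the 8 mice and 25 a negative one. An exact permutation test over all pairings of the mice gave an unadjusted p under 0.05 for 7 pairs, all among these 5 genes, and after Benjamini-Hochberg adjustment over the 45 pairs 0 remained under 0.05. The highest was *Sst* with *Pdyn*, at r = 0.937 (exact permutation p = 0.00117, adjusted 0.0527) and Spearman's rho = 0.881 (exact permutation p = 0.00724, adjusted 0.109). It was 0.866 without SOR replicate 4 and homecage replicate 1, the mice farthest from the median of *Sst*, and 0.935 for the deviations from the group means. With TMM or with library-size scaling this pair passed, at adjusted p = 0.0279 and 0.0446.

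*Sst* with *Cort*, which share receptors, had r = 0.879 (exact permutation p = 0.00449, adjusted 0.0674), rho = 0.905 (exact permutation p = 0.00456, adjusted 0.103), and r = 0.914 without the same mice. *Sst* with *Cck* had r = 0.877 (exact permutation p = 0.00444, adjusted 0.0674) and rho = 0.857 (exact permutation p = 0.0107, adjusted 0.120), and r was 0.708 without these mice. *Pdyn* with *Cort* had r = 0.860 (exact permutation p = 0.00818, adjusted 0.092) and rho = 0.905 (exact permutation p = 0.00456, adjusted 0.103), and r was 0.869 without SOR replicate 3 and homecage replicate 1. *Cck* with *Pdyn* rested more on single mice, since r = 0.772 (exact permutation p = 0.0257, adjusted 0.165; rho = 0.714, exact permutation p = 0.0576, adjusted 0.324) became 0.472 without homecage replicate 1 and SOR replicate 4. The lowest of the 45 was *Penk* with *Tac1*, at r = -0.631.

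For each neuropeptide gene the 3 most similar genes were taken by Pearson's r of log2 CPM over the 8 libraries among 16343 genes whose mean reached 1 CPM, as a description without a test. All of these points share the same libraries and scaling, and picking the top of so many genes makes r high. The trios of the 10 genes held 30 different genes, at r from 0.915 to 0.992, and none was in a list used here.

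*Sst* was closest to *Tubb2a* (r = 0.989), which encodes a tubulin, to *Sri* (0.988), which encodes a calcium-binding protein, and to *Mapk8ip1* (0.982), a scaffold of the JNK pathway. *Pdyn* was closest to *Dbndd2* (0.992), the transcription factor gene *Elk1* (0.972) and the kinase gene *Camk2b* (0.972). *Cort* was closest to *Puf60* (0.985), *Ash2l* (0.966) and *2810013P06Rik* (0.960), and *Cck* to *Fbxo25* (0.972), *Suds3* (0.968) and *Kdelr1* (0.966). The closest genes to *Npy* were *Cdc42ep4* (0.969), *Slc16a1* (0.961) and *Usp20* (0.957).

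Among the genes outside this block, *Penk* was closest to *Sptbn1* (0.969), *Itga4* (0.959) and *Manba* (0.954). *Tac1* was closest to *Pla2g12a* (0.977), *Coq8b* (0.972) and *Atp13a4* (0.955), and *Tac2* to *Sema3g* (0.947), *Ube2f* (0.928) and *Mmaa* (0.927). *Vip* had *Olfm2* (0.944), *Gm3294* (0.933) and *Flywch1* (0.921), and *Crh* had *Capn10* (0.969), *1700109K24Rik* (0.932) and *Triap1* (0.915). For the genes with the fewest counts, *Crh* and *Tac2*, counting error enters these values more than for *Sst* or *Cck*.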

How the data were processed

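Bulk RNA-seq of the dorsal hippocampus of 8 mice was analysed, 4 homecage and 4 SOR. The values deposited by the authors are estimated counts per gene, summarized with tximport and not normalized, and 52.6% of them are not whole numbers. The methods describe STAR alignment within bcbio-nextgen and counting by featureCounts, which would give whole numbers; the tool behind the estimated counts, any scaling from abundance and the use of strand are not given in the sources used here. Also, the labels name polyA RNA where the kit named removes ribosomal RNA. Symbols, types and positions came from GENCODE M21 (GRCm38), which held 54495 of the 54532 genes. Counts were rounded, filtered with filterByExpr, scaled by upper quartile and fitted in edgeR 4.0.16 (R 4.3.3) with the quasi-likelihood F test, adjusted over 22018 genes. The script was tested on simulated counts. The SE is the log2 fold change over the root of F. CPM used the same scaling, and log2 CPM for correlations a prior count of 2. Differences of single genes were also tested by exact permutation. Same-numbered mice had correlations of their deviations from -0.0837 to 0.073, so the numbers were not taken as pairs. Nothing in the labels says how the mice were batched. The p-values set a group difference against the variation between these mice, which edgeR estimates by sharing information over genes.

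The rule for the members uses no measured value, but both the members and the lists were chosen with earlier results of these data known. The text names the 10 genes, in each list the genes past the test or up to 3 with the smallest p, and the 3 genes most similar to each member. Of the 7 CA1 symbols, 6 had a record. Protein sequences were not analysed here, nor were the other assays of the series. Other settings tried were scaling by TMM, RLE or library size, a lower or no filter, the likelihood ratio test, DESeq2 1.42.0, limma-voom (limma 3.58.1), RUVs-type factors (an own implementation, since the number of factors is not stated), a replicate block, counts not rounded and leaving out each mouse.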

Additional observations from a re-analysis of the deposited data

How the results depend on the processing

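None of the 10 neuropeptide genes passed in any of 21 alternative fits, and the lowest adjusted p was 0.51, for *Cort*. The sign of *Npy*, *Cck*, *Pdyn*, *Tac1* and *Crh* turned in at least 1 of them, for *Crh* (0.17 as reported) only without homecage replicate 4. The log2 fold change of *Tac1* was -0.000703 with no filter, -0.0281 with limma-voom, -0.0954 and -0.109 with 2 and 3 RUVs factors, -0.0348 with the replicate block and -0.000322 with counts not rounded. Leaving out 1 mouse at a time moved *Tac1* from -0.151 to 0.129, *Npy* from -0.0946 to 0.0265, *Cck* from -0.0231 to 0.0423, *Pdyn* from -0.13 to 0.0187 and *Crh* from -0.00111 to 0.328. The same step was read for the scarce precursors *Pmch* (-0.15) and *Pomc* (0.01). It moved *Pomc* from -0.16 to 0.265, and *Pomc* was at -0.00617 with 3 RUVs factors. *Pmch* moved from -0.349 to 0.039, but it had a fit only without homecage replicate 1, 2 or 3 or SOR replicate 2 or 4. The causes were not tested. Of the 92 other pathway genes, 0 passed in the reported fit, 1 with the likelihood ratio test (*Baiap3*), 1 with DESeq2, 1 with 1 RUVs factor and 1 with 2 (*Vgf* in these), and 2 with 3 factors. One pair of neuropeptide genes passed with TMM and 1 with library-size scaling, against 0 as reported.

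Over all genes 68 passed as reported, 214 with the likelihood ratio test, 435 with DESeq2, 305, 500 and 508 with 1, 2 and 3 RUVs factors, 40 with the replicate block and 30 to 44 without any mouse other than SOR replicate 1, and 55 without that mouse. The block changed no call on a neuropeptide gene. Activity-regulated genes past the test numbered 12 as reported and between 7, without homecage replicate 2, and 18, with 3 RUVs factors. The SE was largest for *Crh* (0.241) and *Tac1* (0.206), and *Crh* and *Tac2* had the fewest counts. The median log2 fold change of all genes was -0.0193 as reported, 0.000582 with TMM, 0.00189 with RLE and -0.0122 with library-size scaling. Small estimates of neuropeptide genes moved with it. With TMM, *Sst* went from -0.0333 to -0.0126, *Npy* from -0.0271 to -0.00571 and *Cck* from 0.016 to 0.0367.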

Other observations

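Markers of hippocampal subfields, read as a check on which cells the tissue held, showed a group difference past the test for none of 6 CA1, 12 CA2 and CA3 or 12 dentate granule and mossy cell markers by edgeR, and 2, 1 and 1 of them had an unadjusted p under 0.05, against 10.1% of all genes tested. The CA1 gene *Man1a*, which encodes a mannosidase of the Golgi, was 1 of these, at 87.6 ± 3.80 CPM in homecage and 80.5 ± 4.70 in SOR (SD, n = 4 each; log2 fold change -0.12, edgeR adjusted p = 0.453). The other CA1 gene, *Gpr161*, encodes an orphan receptor of the primary cilium and was at 103, 104, 116 and 109 CPM in homecage and at 147, 130.3, 125 and 129 CPM in SOR, with every SOR mouse above every homecage mouse (log2 fold change 0.30, SE 0.0575; edgeR adjusted p = 0.0779). It passed with no filter (edgeR adjusted p = 0.0409), with the likelihood ratio test (adjusted p = 0.00222), with DESeq2 (adjusted p = 0.000802) and with 1, 2 and 3 RUVs factors. The mean was lower in SOR for 1 of 6 CA1, 10 of 12 CA2 and CA3 and 8 of 12 dentate markers, against 56.2% of all genes tested. *Pcp4*, of the CA2 and CA3 list, had 53.9 ± 3.82 and 49.1 ± 2.02 CPM without overlap (log2 fold change -0.13, edgeR adjusted p = 0.473). The summed CA1 markers ran from 435 to 483 CPM in homecage and from 468 to 491 CPM in SOR. The summed dentate markers ran from 893 to 1030 CPM in homecage and from 821 to 991 CPM in SOR, and those of CA2 and CA3 from 464 to 485 and from 445 to 470 CPM. Thalamic markers had 0 of 10 past the test with sums of 154 to 175 CPM in homecage and 132 to 161 CPM in SOR. Neocortical and subicular markers had 0 of 12 past the test, with sums of 378 to 416 and 349 to 438 CPM. Of 12 hypothalamic markers, 3 could be tested and 0 passed, with sums of 1.17 to 2.11 CPM in homecage and 1.32 to 1.66 CPM in SOR.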
